A study of Mus musculus with 6 samples.

Results

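The genes described here are those of the tricarboxylic acid (TCA) cycle, of pyruvate entry into it, and of itaconate synthesis. They were taken by name from a list of 32 gene symbols, a list that was drawn up with earlier results of these data known, and the rule uses no measured value. *Irg1* is an older symbol of *Acod1*, so the list held 31 genes, and all of them were found among the 24786 gene symbols of the expression table. Raw264.7 cells, a mouse macrophage line from an Abelson leukemia virus-induced tumor, were infected with lentivirus carrying either a negative control hairpin (sh-NC) or a hairpin that targets *Etv5* (sh-*Etv5*), and polyA RNA of 3 libraries per group was sequenced. ETV5 is a transcription factor of the ETS family, and the comparison asks which transcripts differ when its own transcript is reduced. The libraries of both groups share the C57BL/6 strain label, an age label of postnatal day 21, and virus infection with Lipofectamine, and none of the 6 libraries is labelled as untreated. The study's text gives C57BL/6 for its mice, and describes Raw264.7 as a purchased line without a strain or age. The labels give 24 or 48 hours after infection without saying which applied to sequencing, while the study's text describes stable transfection. Neither the hairpin that was used, nor whether separate infections gave rise to the libraries of 1 group, is given in the sources used here. The p-values therefore measure only the spread between these libraries, which may be technical, and 1 cell line stands for macrophages.

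Pyruvate enters mitochondria and is converted to acetyl-CoA by the pyruvate dehydrogenase complex, which is switched off by pyruvate dehydrogenase kinases and on by phosphatases. Citrate synthase joins acetyl-CoA to oxaloacetate, and the cycle returns to oxaloacetate through isocitrate, 2-oxoglutarate, succinate, fumarate and malate. Activated macrophages divert the intermediate cis-aconitate to itaconate through ACOD1, and itaconate is a known inhibitor of succinate dehydrogenase. In such cells, isocitrate dehydrogenase and succinate dehydrogenase are the steps best known for being slowed, often called breaks in the cycle.

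Values are RPKM (reads counted on a gene per kilobase of its length, scaled by the mapped reads of the library), and are given for replicates 1, 2 and 3 in that order. Their sum over all genes was 320462 to 322949 in the sh-NC libraries and 330454 to 340257 in the sh-*Etv5* libraries, and sequencing depth cannot be read from such values. Pearson correlations across genes of log2(RPKM + 1) were 0.9982 to 0.9988 within a group and 0.9745 to 0.975 between groups, and genes are not independent replicates. *Etv5* was at 9.18, 9.89 and 9.39 RPKM in sh-NC and at 5.19, 4.91 and 5.28 RPKM in sh-*Etv5* libraries, so all knockdown libraries lay below all controls (limma adjusted p = 2.74e-07), and 24.5% of its 50-base sequences also occur in the pseudogene *Gm4798*. All 7 macrophage markers examined were at 1 RPKM or above in every library. Of these, *Adgre1* (4.35-fold), *Itgam* (3.77-fold), *Cd14* (1.19-fold) and *Spi1* (1.11-fold) were higher in sh-*Etv5* libraries, whereas *Csf1r* (0.568-fold), *Cd68* (0.675-fold) and *Lyz2* (0.720-fold) were lower, all without overlap. Their sum, most of which is *Lyz2*, was 4409 to 4535 RPKM in sh-NC and 3518 to 3640 RPKM in sh-*Etv5* libraries. None of the 14 markers of T cells, B cells, fibroblasts, epithelium and adipocytes exceeded 0.365 RPKM. Of the 3 neutrophil markers, *S100a9* and *Ly6g* were listed at 0 in all libraries, whereas *S100a8* was at 0.123 to 0.491 RPKM in sh-NC and at 15.5 to 19.7 RPKM in sh-*Etv5* libraries. In bulk RNA, fewer cells of a type and less RNA per cell cannot be told apart.

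Among the genes tested below, *Acod1* and *Me1* had the largest rises and *Idh2* and *Suclg2* the largest falls on the log2(RPKM + 1) scale, and the bases just upstream of their annotated starts are shown for that reason. The sequences are RefSeq promoter sequences on GRCm38.p6, written 5′ to 3′ along the strand of the gene. Where the GENCODE gene starts inside the RefSeq window, the printed sequence stops before that gene start. Capitals mark matches, on either strand, to an ETS motif (GGAAGT), the NF-kB motif or the interferon-stimulated response element (ISRE, the letters GAAA, any 2 letters and GAAA again), motifs that were chosen with the sequences in view.
Acod1, chr14:103046762-103046976, plus strand: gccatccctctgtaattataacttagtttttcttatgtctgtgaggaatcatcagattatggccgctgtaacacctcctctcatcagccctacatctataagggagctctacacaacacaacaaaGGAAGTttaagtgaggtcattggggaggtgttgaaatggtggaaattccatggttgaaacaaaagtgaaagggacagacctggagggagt
Me1, chr9:86695954-86696164, minus strand: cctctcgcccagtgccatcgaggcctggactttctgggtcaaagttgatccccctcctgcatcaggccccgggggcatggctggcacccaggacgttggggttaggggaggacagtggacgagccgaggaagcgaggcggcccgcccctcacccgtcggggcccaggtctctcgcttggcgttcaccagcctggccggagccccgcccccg
Idh2, chr7:80115393-80115600, minus strand: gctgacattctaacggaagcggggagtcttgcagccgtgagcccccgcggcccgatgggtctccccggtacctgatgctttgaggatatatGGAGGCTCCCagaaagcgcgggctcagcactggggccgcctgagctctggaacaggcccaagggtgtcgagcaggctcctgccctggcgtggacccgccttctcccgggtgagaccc
Suclg2, chr6:95718847-95719096, minus strand: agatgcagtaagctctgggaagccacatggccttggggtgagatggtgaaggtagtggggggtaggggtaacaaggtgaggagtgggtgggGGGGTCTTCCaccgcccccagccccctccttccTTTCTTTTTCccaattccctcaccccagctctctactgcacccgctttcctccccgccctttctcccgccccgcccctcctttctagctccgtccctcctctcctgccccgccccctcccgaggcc

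The *Acod1* window held the ETS letters 119 bases before the RefSeq start. The *Idh2* and *Suclg2* windows each held an NF-kB match 149 bases before the RefSeq start, and the *Suclg2* window also held an ISRE match 116 bases before it. For *Acod1* and *Idh2* the RefSeq start lies beyond the last printed base, so these distances exceed those to the end of the printed sequence. None of the 3 motifs was found in the *Me1* window. RefSeq promoters were found for 28 of the 31 genes, with 38 windows of 250 bases before a start, of which 6 held the ETS letters, 6 an NF-kB match and 1 an ISRE match. Over all 32851 promoters of the same length, the shares were 19.7%, 7.25% and 2.98%. A match is a description of the letters only.

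Of the 31 genes, 29 reached 1 RPKM in at least 3 of the 6 libraries and were tested by limma on log2(RPKM + 1), a scale on which changes of low genes appear smaller than they are. *Acod1* rose far more than the others, and the remaining called genes rose and fell in equal numbers. With libraries rescaled to the same sum, 9 genes of the list were higher and 12 lower, against 3124 and 4922 of all genes tested. Quantile normalization gave 12 and 11, as without rescaling, and so did a rescaling that leaves out the top 10 genes of each library. The balance thus moved under the first of these scalings only. At a Benjamini-Hochberg adjusted p under 0.05, the knockdown libraries had higher levels of 12 of the 29 and lower levels of 11, whereas 6 did not pass. Among all 10738 genes tested, 33.3% were higher and 41.0% lower, so that 74.3% were called in either direction, against 79.3% of these genes. In 23 of the 29 genes every library of 1 group lay above every library of the other, against 76.4% of all genes tested. The median log2 fold change was 0.05 over the 29 genes and -0.05 over all genes, and the median size without sign was 0.28 and 0.31. The counts are thus close to the background, and the direction and size of each step are described below by role. With a size above 0.5 on the log2 scale required as well, *Acod1*, *Me1*, *Dld* and *Dlst* were higher and *Idh2*, *Suclg2* and *Me2* lower, against 15.9% higher and 15.0% lower of all genes.

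**Figure D1:**
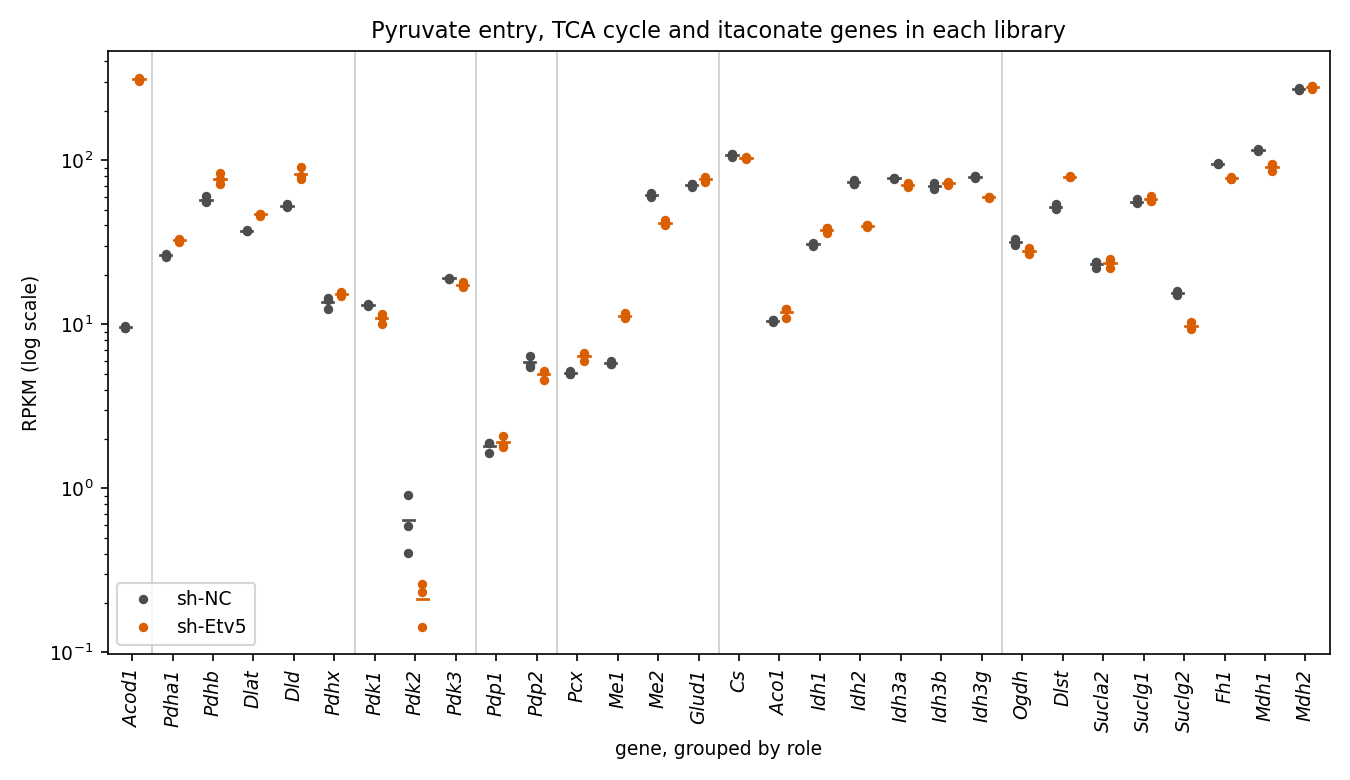
RPKM (log axis) of each gene in each library, grouped by role and separated by vertical lines. Points are libraries (3 sh-NC in grey, 3 sh-Etv5 in orange) and short bars are group means. *Acod1* moves from 9.62 to 311 RPKM, to above *Mdh2*, and the other genes move less. Of the other 28 tested genes, 22 also do not overlap between the groups, against 76.4% of all genes tested. *Pdk4*, listed at 0 in all libraries, is not drawn.

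ACOD1 is the mitochondrial enzyme that makes itaconate from cis-aconitate, and its gene is known as one induced in activated macrophages. *Acod1* (chr14:103046977-103056573 in GENCODE M21, plus strand) had 9.52, 9.53 and 9.81 RPKM in the control libraries, and the knockdown libraries had 304, 312 and 316 RPKM. The groups were far apart and each was tight. The mean rose from 9.62 ± 0.162 to 311 ± 6.18 RPKM (SD, n = 3), which is 32.3-fold. On the log2 scale it rose by 4.87 (95% interval 4.80 to 4.95, limma adjusted p = 2.69e-15), the 15th largest rise of the 10738 genes tested. By mean RPKM, *Acod1* moved from rank 5668 to rank 123 of 24786 genes, and from 0.647% ± 0.0117 to 17.5% ± 0.275 of the summed RPKM of the 31 genes. The neutrophil marker *S100a8* moved in the same direction, as given above, with the other 2 neutrophil markers at 0, and of the 7 macrophage markers 4 were higher and 3 lower. Their part in the result was not tested. Without *Acod1*, the summed RPKM of the remaining genes was 1478 ± 3.37 in sh-NC and 1467 ± 29.9 in sh-*Etv5* libraries, and 11 genes were higher and 11 lower. As a share of the RPKM of all genes, that sum was 0.457% to 0.462% in sh-NC and 0.435% to 0.441% in sh-*Etv5* libraries, without overlap.

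All 5 genes of the pyruvate dehydrogenase complex were higher in sh-*Etv5* cells, with log2 fold changes of 0.17 to 0.63. Of all genes tested, 33.3% were higher. *Dld* encodes the E3 component, which reoxidizes lipoamide and is shared with the 2-oxoglutarate dehydrogenase complex. It was at 52.0, 52.4 and 53.9 RPKM in sh-NC and at 77.1, 79.7 and 90.9 RPKM in sh-*Etv5* libraries. This was the largest rise of the complex, at 56.6% of the mean (log2 fold change 0.63, SE 0.0548, limma adjusted p = 1.15e-06). *Pdhb*, the beta subunit of the E1 decarboxylase, was at 56.3, 60.1 and 55.3 RPKM against 76.3, 72.0 and 83.2 RPKM (0.42, limma adjusted p = 2.45e-05). *Pdha1*, the alpha subunit of E1 that the kinases phosphorylate, was at 25.9, 26.9 and 26.0 RPKM against 32.6, 31.9 and 33.3 RPKM (0.30, limma adjusted p = 2.91e-05). *Dlat*, the acetyltransferase core E2, rose by a similar amount, from 37.2 ± 0.408 to 46.7 ± 0.878 RPKM (0.32, limma adjusted p = 8.46e-06). *Pdhx*, which tethers E3 to that core, had the smallest rise, from 12.3, 14.1 and 14.4 RPKM to 15.4, 14.9 and 15.7 RPKM (0.17, limma adjusted p = 0.0259). Its call was lost with libraries rescaled to the same sum (limma adjusted p = 0.126), without the filter (0.0781), and without sh-NC replicate 1 (0.112), sh-*Etv5* replicate 1 (0.0628) or sh-*Etv5* replicate 3 (0.0619), with the same direction throughout. *Pdhb* shares 10.9% of its 50-base sequences with other annotated genes, mainly the pseudogene *Gm6123*, and exons of *Pdha1* overlap *Map3k15* on the opposite strand.

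Both tested kinases that switch the complex off were lower, against 41.0% of all genes tested. *Pdk3* and *Pdk1* made up nearly all of the summed kinase RPKM in both groups. *Pdk1* was at 13.0, 13.1 and 13.3 RPKM in sh-NC and at 10.0, 11.1 and 11.5 RPKM in sh-*Etv5* libraries, a fall of the mean without overlap (log2 fold change -0.25, limma adjusted p = 0.00169). *Pdk3* fell less, from 18.9, 19.2 and 19.0 RPKM to 18.2, 16.8 and 17.2 RPKM (-0.13, limma adjusted p = 0.0238). The *Pdk3* call was lost under quantile normalization (limma adjusted p = 0.0961) and without sh-NC replicate 2 (0.0729), sh-NC replicate 3 (0.057) or sh-*Etv5* replicate 2 (0.0728). *Pdk2* was below the filter, at 0.913, 0.590 and 0.406 RPKM in sh-NC and at 0.232, 0.260 and 0.143 RPKM in sh-*Etv5* libraries, with no overlap. Without the filter its log2 fold change was -0.42 (limma adjusted p = 0.0313). *Pdk4* was listed at 0 in all 6 libraries. Of the phosphatases that switch the complex back on, *Pdp2* was at 5.46, 6.43 and 5.65 RPKM against 4.59, 5.08 and 5.17 RPKM (-0.20, limma adjusted p = 0.0247), a call that was lost without the filter (0.0718) and without sh-NC replicate 2 (0.116) or sh-*Etv5* replicate 1 (0.0936). *Pdp1*, the other phosphatase, was at 1.65 to 1.89 RPKM in sh-NC and at 1.78 to 2.09 RPKM in sh-*Etv5* libraries, and the groups overlapped (limma adjusted p = 0.593). Its log2 fold change of 0.05 had a 95% confidence interval of -0.13 to 0.22, and its sign turned under quantile normalization.

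**Figure D2:**
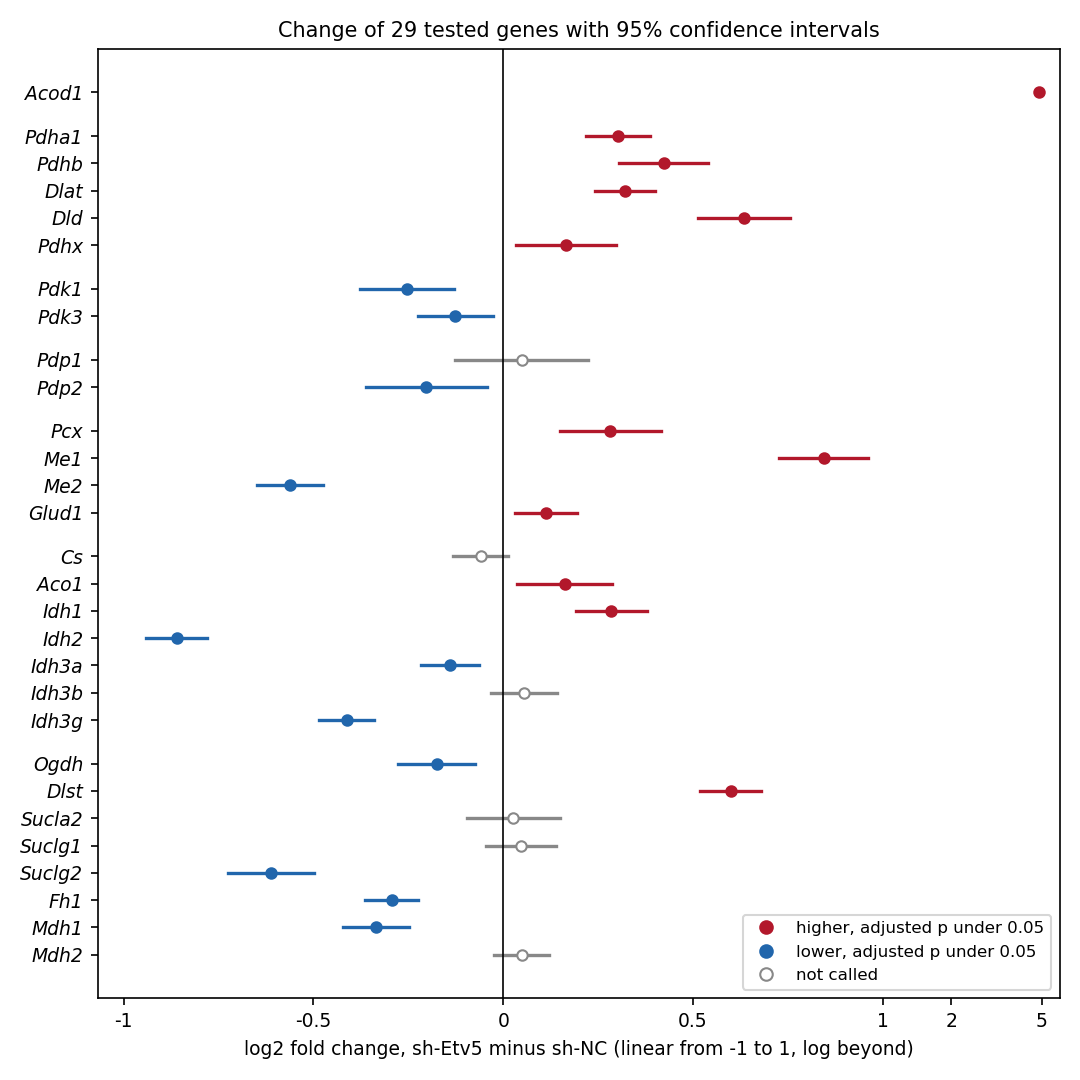
Log2 fold change (sh-Etv5 minus sh-NC, on log2(RPKM + 1)) of the 29 tested genes with 95% confidence intervals from limma, in the order of their roles. The axis is linear between -1 and 1 and logarithmic beyond. Red points are higher and blue points lower at an adjusted p under 0.05, and open points did not pass. All 5 genes of the pyruvate dehydrogenase complex lie to the right of 0, both tested kinases to the left, and *Acod1* alone lies beyond 1. Of all genes tested, 33.3% were higher and 41.0% lower.

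The malic enzymes moved in opposite directions. *Me1*, the cytosolic enzyme that turns malate into pyruvate and makes NADPH, was at 5.76, 5.99 and 5.70 RPKM in sh-NC and at 11.7, 10.9 and 11.2 RPKM in sh-*Etv5* libraries. Its mean rose by 93.3% (log2 fold change 0.84, SE 0.0534, limma adjusted p = 8.50e-08). *Me2*, a mitochondrial malic enzyme, was at 59.8, 63.5 and 61.8 RPKM against 40.5, 40.9 and 43.0 RPKM (-0.56, limma adjusted p = 1.98e-07). *Me1* remained the lower of the pair in every library, at a ratio to *Me2* of 0.0944 ± 0.00207 in sh-NC and 0.271 ± 0.0154 in sh-*Etv5* libraries. *Me1* (chr9:86581371-86695953, minus strand) shares 22.9% of its 50-base sequences with other annotated genes, mainly the pseudogene *Gm7049*, which has no row in the table, and its exons overlap *A330041J22Rik* on the opposite strand. *Pcx*, the carboxylase that supplies oxaloacetate from pyruvate, was higher, at 5.21, 5.00 and 4.97 RPKM against 6.50, 6.65 and 5.99 RPKM (0.28, limma adjusted p = 0.00135). *Glud1*, glutamate dehydrogenase, which feeds 2-oxoglutarate, differed by 8.23% of the mean, from 71.5, 68.4 and 71.5 RPKM to 74.0, 76.3 and 78.5 RPKM (0.11, limma adjusted p = 0.0164). The *Glud1* call was lost with libraries rescaled to the same sum (limma adjusted p = 0.209), without the intensity trend (0.051) and without sh-NC replicate 2 (0.0793). *Glud1* shares 6.49% of its 50-base sequences with other annotated genes, mainly the pseudogene *Glud-ps*.

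Between citrate and 2-oxoglutarate, the isocitrate dehydrogenases did not move together. *Idh2*, the NADP-dependent enzyme of mitochondria (chr7:80094846-80115392, minus strand), was at 76.0, 72.0 and 72.0 RPKM in sh-NC and at 40.1, 39.3 and 40.4 RPKM in sh-*Etv5* libraries. Its mean fell by 45.5%, and it was the most reduced of the 29 genes (log2 fold change -0.86, SE 0.0363, limma adjusted p = 3.28e-09) and had the 493rd largest fall of all genes tested. *Idh1*, its cytosolic counterpart, was instead higher, at 31.5, 29.8 and 30.7 RPKM against 35.9, 38.5 and 38.4 RPKM (0.28, limma adjusted p = 9.27e-05). The ratio of *Idh1* to *Idh2* was 0.414, 0.414 and 0.426 in sh-NC and 0.895, 0.977 and 0.951 in sh-*Etv5* libraries. The NAD-dependent enzyme of the cycle is built of the catalytic subunit *Idh3a* with *Idh3b* and *Idh3g*. *Idh3g* was lower, at 80.2, 80.1 and 77.8 RPKM against 59.0, 60.0 and 59.3 RPKM (-0.41, limma adjusted p = 5.50e-07). *Idh3a* fell by 0.14 on the log2 scale, from 77.7 ± 0.356 to 70.4 ± 2.12 RPKM (limma adjusted p = 0.00354). *Idh3b* overlapped between the groups, at 66.9 to 72.6 RPKM in sh-NC and 70.4 to 74.0 RPKM in sh-*Etv5* libraries (limma adjusted p = 0.230), and its exons overlap *Nop56* on the opposite strand. The log2 fold change of *Idh3b*, 0.05 with a 95% confidence interval of -0.03 to 0.14, was -0.0062 with libraries rescaled to the same sum.

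*Cs*, citrate synthase, the entry step of the cycle, was at 108, 109 and 104 RPKM in sh-NC and at 104, 103 and 102 RPKM in sh-*Etv5* libraries. The groups overlapped and the change did not pass (log2 fold change -0.06, 95% confidence interval -0.13 to 0.01, limma adjusted p = 0.125). The *Cs* change passed with libraries rescaled to the same sum (-0.12, limma adjusted p = 0.00578) and under quantile normalization (-0.09, 0.0244). *Aco1*, the cytosolic aconitase that doubles as an iron sensor, was slightly higher, at 10.3, 10.6 and 10.6 RPKM against 12.3, 12.4 and 10.9 RPKM (0.16, limma adjusted p = 0.0238). That call was lost with libraries rescaled to the same sum (limma adjusted p = 0.145), without the filter (0.0531), and without sh-NC replicate 1 (0.0716), sh-*Etv5* replicate 1 (0.083) or sh-*Etv5* replicate 2 (0.0818).

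From 2-oxoglutarate to oxaloacetate, 1 gene was higher, 4 were lower (41.0% of all genes tested were), the cytosolic *Mdh1* among them, and 3 did not pass. The exception was *Dlst*, the succinyltransferase core E2 of the 2-oxoglutarate dehydrogenase complex (chr12:85110833-85134845, plus strand). It was at 50.5, 54.1 and 51.6 RPKM in sh-NC and at 79.4, 79.1 and 79.8 RPKM in sh-*Etv5* libraries, a rise of 52.5% of the mean (log2 fold change 0.60, SE 0.0361, limma adjusted p = 5.67e-08). *Ogdh*, the E1 decarboxylase of the same complex, was lower, at 33.2, 30.6 and 31.1 RPKM against 27.7, 29.1 and 26.9 RPKM (-0.18, limma adjusted p = 0.00509). Thus the E2 and E1 genes of this complex moved apart, and *Dld*, its E3 gene, rose as given above. Succinyl-CoA synthetase pairs the shared alpha subunit *Suclg1* with either *Sucla2*, for the ATP-forming enzyme, or *Suclg2*, for the GTP-forming enzyme. *Suclg2* (chr6:95473009-95718800, minus strand) was at 15.4, 15.0 and 15.8 RPKM in sh-NC and at 9.36, 10.3 and 9.60 RPKM in sh-*Etv5* libraries. It fell by 36.8% of its mean (-0.61, SE 0.0512, limma adjusted p = 8.78e-07), and it shares 16.0% of its 50-base sequences with the pseudogene *Gm15163*. *Sucla2* overlapped between the groups, at 22.0 to 23.9 RPKM against 21.9 to 25.1 RPKM (limma adjusted p = 0.680), and so did *Suclg1*, at 54.6 to 57.8 RPKM against 56.2 to 60.7 RPKM (limma adjusted p = 0.328). Their log2 fold changes of 0.03 and 0.05 had 95% confidence intervals of -0.10 to 0.15 and -0.05 to 0.14, and rescaling the libraries to the same sum put both below 0.

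Of the last steps of the cycle, *Fh1* was lower and *Mdh2* was close to the controls, while the cytosolic *Mdh1* was lower. *Fh1*, fumarase, was at 94.6, 94.2 and 96.8 RPKM in sh-NC and at 78.6, 76.9 and 76.8 RPKM in sh-*Etv5* libraries (log2 fold change -0.29, limma adjusted p = 7.83e-06). *Mdh1*, the cytosolic malate dehydrogenase of the malate-aspartate shuttle, was at 114, 115 and 118 RPKM against 93.5, 86.4 and 94.5 RPKM (-0.34, limma adjusted p = 1.60e-05). *Mdh2*, the mitochondrial enzyme that regenerates oxaloacetate, had the highest level of these genes in sh-NC libraries. It overlapped between the groups, at 268 to 275 RPKM in sh-NC and at 270.0 to 285 RPKM in sh-*Etv5* libraries (0.05, 95% confidence interval -0.03 to 0.12, limma adjusted p = 0.207), and its log2 fold change was -0.013 with libraries rescaled to the same sum. Exons of *Mdh1* overlap *Wdpcp* on the opposite strand.

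Ratios of paired isozymes or subunits within a library do not depend on the scaling of that library. Of 14 ratios planned, 13 had both genes at 0.1 RPKM or above in every library, and 11 of these did not overlap between the groups. Of all single genes tested, 76.4% did not overlap, and no such share was computed for ratios of other gene pairs. An exact permutation test of 3 against 3 libraries, two-sided, cannot give a p below 0.1, and each of the 11 reached it (adjusted p = 0.118 over the 13 ratios). The ratio of *Me1* to *Me2* differed most among the ratios of single genes, by 2.88-fold of the group means, followed by *Idh1* to *Idh2*, by 2.25-fold. The ratio of *Dlst* to *Ogdh* was 1.52, 1.77 and 1.66 in sh-NC and 2.87, 2.72 and 2.97 in sh-*Etv5* libraries, so it differed by 1.73-fold. *Suclg2* to *Sucla2* was at 0.703, 0.631 and 0.662 against 0.389, 0.470 and 0.383. Smaller shifts were seen for *Mdh1* to *Mdh2* (0.428 ± 0.0131 to 0.327 ± 0.00612), *Idh3g* to *Idh3a* (1.02 ± 0.0199 to 0.844 ± 0.0248) and *Idh3b* to *Idh3a* (0.898 ± 0.0404 to 1.03 ± 0.00877). Within the pyruvate dehydrogenase complex, *Pdhb* to *Pdha1* was 2.18 ± 0.0533 against 2.37 ± 0.124, and *Pdhx* to *Dlat* overlapped (0.366 ± 0.0301 against 0.329 ± 0.0136, exact permutation p = 0.2). *Pdp2* to *Pdp1* was 3.24 ± 0.225 against 2.61 ± 0.147. Among the kinases, *Pdk3* took 58.1% ± 0.399 of the summed kinase RPKM in sh-NC and 61.1% ± 2.51 in sh-*Etv5* libraries, *Pdk1* 40.0% ± 0.562 and 38.2% ± 2.58 with overlap (exact permutation p = 0.3), and *Pdk2* 1.94% ± 0.780 and 0.745% ± 0.222 (all values SD, n = 3).

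**Figure D3:**
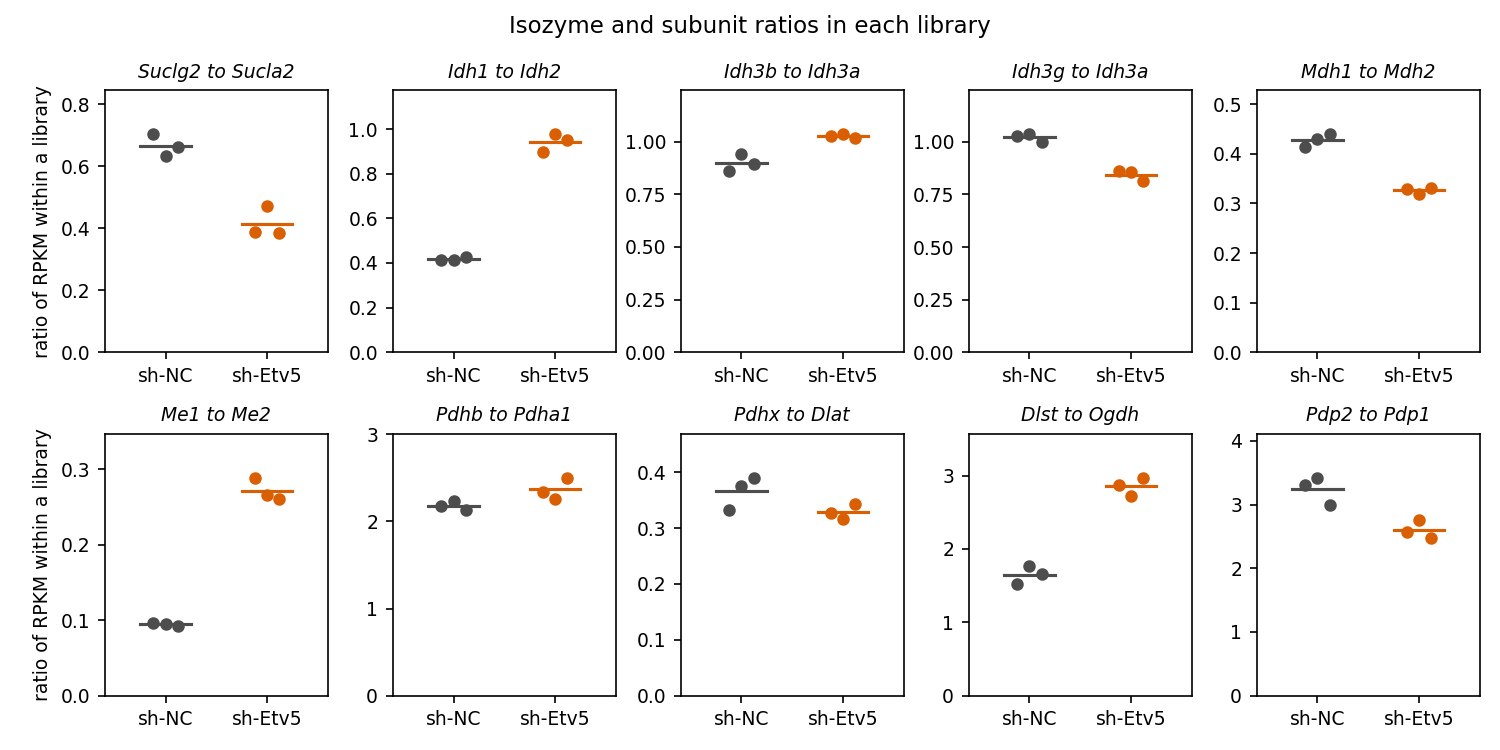
Ratio of RPKM of paired isozymes or subunits in each library (vertical axes start at 0; points are libraries, 3 per group, and bars are group means). *Idh1* to *Idh2*, *Me1* to *Me2* and *Dlst* to *Ogdh* lie higher and *Suclg2* to *Sucla2* lower in all sh-Etv5 libraries, while *Pdhx* to *Dlat* overlaps.

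Succinate dehydrogenase, which the list of 31 leaves out, and the carriers and cofactor genes around the cycle were examined as a list of 42 further genes, of which 37 were tested. Of these, 11 rose, 18 fell and 8 did not pass (78.4% called, against 74.3% of all genes). After rescaling the libraries to the same sum, 7 rose and 23 fell. The split was 12 and 19 under quantile normalization, and unchanged with the rescaling that leaves out the top 10 genes of each library. The median log2 fold change was -0.19, with a range of -1.03 to 1.25. None of the 8 genes of succinate dehydrogenase and its assembly factors was higher, 5 were lower and 3 did not pass. *Sdhd*, a membrane anchor of succinate dehydrogenase, was at 166, 156 and 162 RPKM in sh-NC and at 99.5, 104 and 111 RPKM in sh-*Etv5* libraries (-0.62, limma adjusted p = 2.26e-07). *Sdha*, the flavoprotein subunit, fell by 0.35 (limma adjusted p = 3.12e-06) and *Sdhb*, the iron-sulfur subunit, fell by 0.22 on the log2 scale (limma adjusted p = 0.000545). *Sdhc*, the other anchor, overlapped between the groups at 79.1 to 83.4 RPKM and 78.5 to 80.2 RPKM (-0.03, limma adjusted p = 0.378), but passed with libraries rescaled to the same sum (-0.10, limma adjusted p = 0.0248). At the steps known as breaks in the cycle, transcripts of *Idh2*, *Idh3g*, *Idh3a* and 3 of the 4 succinate dehydrogenase subunits were lower. *Idh3b* and *Sdhc* did not pass, and the cytosolic *Idh1* was higher. Among all genes tested, 41.0% were lower, and enzyme activity was not measured.

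Of the 5 tested genes of pyruvate transport and lactate, 1 was higher and 3 were lower. Of all genes tested, 33.3% were higher and 41.0% lower. The lactate exporter *Slc16a3* was at 105, 98.4 and 102 RPKM in sh-NC and at 178, 176 and 169 RPKM in sh-*Etv5* libraries (0.77, limma adjusted p = 9.81e-09), whereas the monocarboxylate carrier *Slc16a1* was at 72.8, 75.2 and 73.0 RPKM against 55.4, 55.0 and 58.6 RPKM (-0.38, limma adjusted p = 2.99e-06). Of the 5 genes examined for lipoate, thiamine transport and the phosphatase regulator, 2 were higher and 2 lower. *Lipt2*, for the enzyme that starts the synthesis of lipoate, the cofactor on the E2 proteins of *Dlat* and *Dlst*, was at 7.61, 8.31 and 8.69 RPKM against 3.42, 2.91 and 4.23 RPKM (-1.03, limma adjusted p = 2.33e-06). *Pdpr*, a regulatory subunit of the pyruvate dehydrogenase phosphatase, was at 6.33, 5.86 and 6.17 RPKM against 3.39, 4.92 and 3.05 RPKM (-0.59, limma adjusted p = 0.000852). Both were lower in every sh-*Etv5* library. Of the 8 shuttle genes, 4 were higher and 2 lower, among them the cytosolic aspartate aminotransferase *Got1* (0.57, limma adjusted p = 5.98e-08) and the dicarboxylate carrier *Slc25a10* (-0.64, limma adjusted p = 4.33e-07).

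Of the 8 tested genes of glutamine use and other routes into the cycle, 4 were higher and 3 lower, against 33.3% and 41.0% of all genes. *Pck2*, the mitochondrial enzyme that draws oxaloacetate to phosphoenolpyruvate, was at 14.1, 11.9 and 12.9 RPKM in sh-NC and at 33.1, 30.8 and 32.2 RPKM in sh-*Etv5* libraries (1.25, limma adjusted p = 7.00e-09). *Gpt2*, the mitochondrial alanine aminotransferase, which links pyruvate and 2-oxoglutarate, was at 6.18, 5.86 and 5.99 RPKM against 15.0, 15.1 and 15.4 RPKM (1.21, limma adjusted p = 2.31e-09). Both lay well apart from the controls in every library. All 3 tested genes of itaconate breakdown and 2-hydroxyglutarate disposal were lower, as were 41.0% of all genes tested. *Clybl*, an enzyme of citramalyl-CoA cleavage in itaconate breakdown, was at 4.59, 4.87 and 4.94 RPKM against 3.55, 3.55 and 3.95 RPKM (-0.31, limma adjusted p = 0.00132), opposite to *Acod1*. *D2hgdh*, which oxidizes D-2-hydroxyglutarate to 2-oxoglutarate, was at 5.10, 5.74 and 5.31 RPKM against 2.51, 2.06 and 2.49 RPKM (-0.93, limma adjusted p = 7.68e-07). It shares 17.8% of its 50-base sequences with other annotated genes. The 5 genes not tested were *Ldhb*, *Me3* and *Dhtkd1*, which were listed at 0 in all libraries, and *Ogdhl* and *Sugct*, which stayed below the filter.

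**Figure D4:**
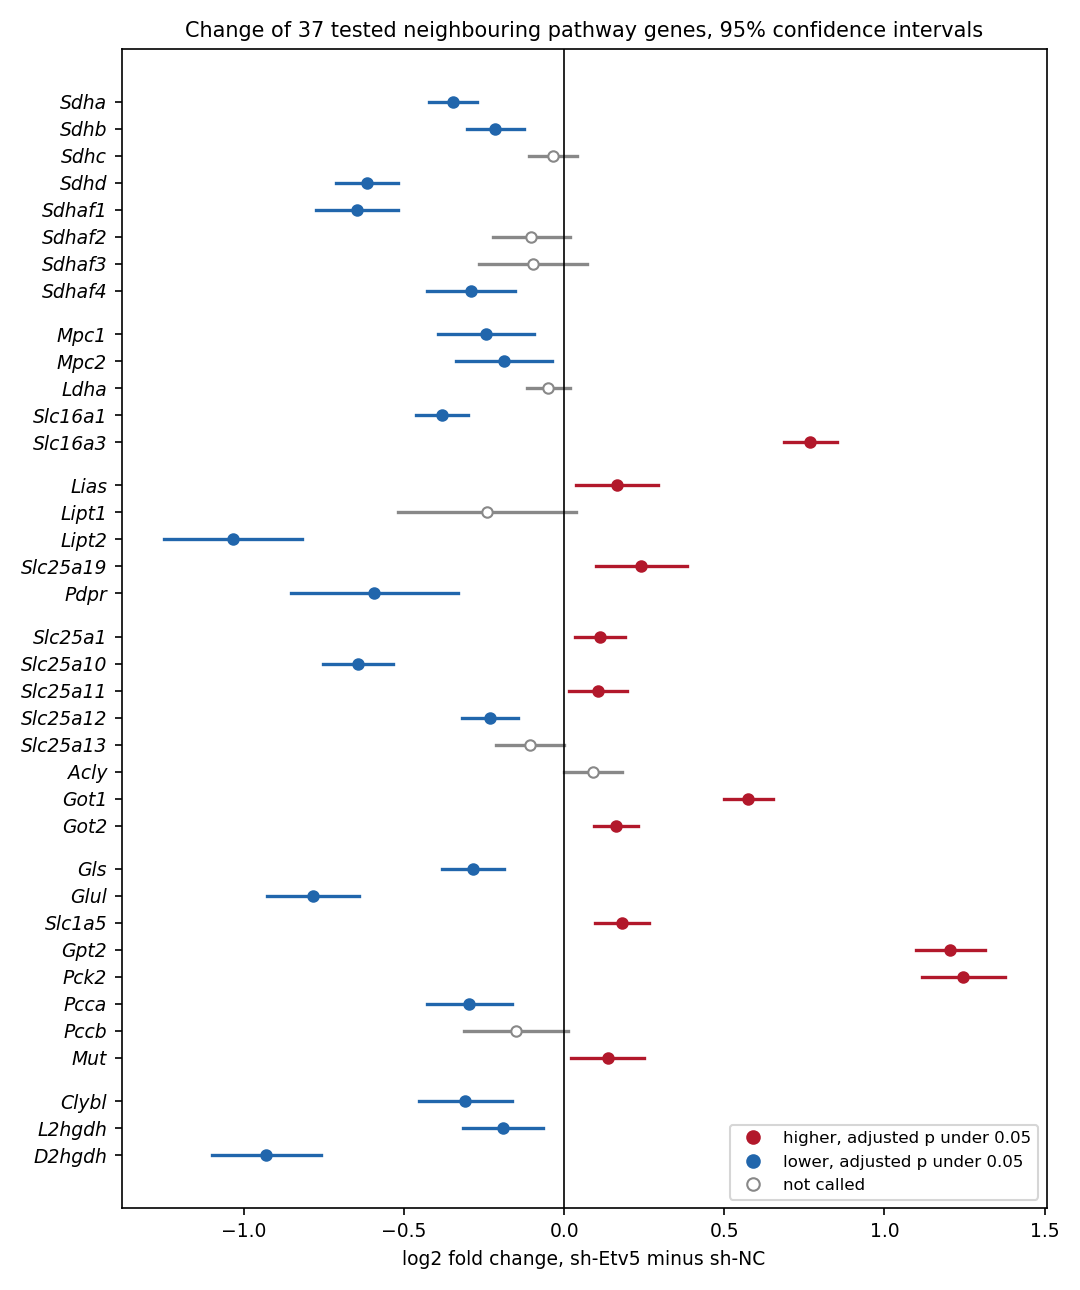
Log2 fold change (sh-Etv5 minus sh-NC, on log2(RPKM + 1)) of the 37 tested further genes of the pathway, with 95% confidence intervals from limma and gaps between role lists. Red points are higher, blue points lower at an adjusted p under 0.05, and open points did not pass. In the top block (*Sdha* to *Sdhaf4*) no point passes to the right of 0, and *Pck2* and *Gpt2* lie furthest to the right.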

How the data were processed

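RPKM values, 1 per gene symbol and library, were deposited by the authors, who mapped to mm10 per the labels. Read counts were not recovered from these values, and no counting interval was computed. The aligner, the annotation and the use of strand are not given in the sources used here. Genes that reached 1 RPKM in 3 or more of the 6 libraries were compared on log2(RPKM + 1) with limma 3.58.1 in R 4.3.3 (two-sided, eBayes with intensity trend, no covariate), the package named in the study's methods, and Benjamini-Hochberg adjusted p-values under 0.05 over all genes tested were called. The limma step was tested on simulated data. Ratios within a library were compared by exact permutation (SciPy 1.17.1, Python 3.11.15). Coordinates, shared 50-base sequences (given above 5% for genes named with values) and overlaps on the opposite strand came from GENCODE M21 on GRCm38.

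Named genes were *Etv5*, every gene of the list, the 4 succinate dehydrogenase subunits, and the 2 called genes with the largest absolute change of each further list, and 2 genes are not reported here. The members and lists were chosen with earlier results of these data known. Alternatives were quantile normalization, libraries rescaled to the same sum, a pseudocount of 0.1, a filter of 5 on the mean RPKM or none, the replicate block, eBayes without trend, leaving out each library, and a log2 fold change above 0.5. A rescaling that leaves out the top 10 genes of each library was chosen after seeing the data.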

Additional observations from a re-analysis of the deposited data

How the results depend on the processing

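Of the 23 called genes of the list, 18 kept their direction and their call under each of up to 14 alternatives. These leave out the log2 fold change above 0.5, which is given below. The other 5 (*Pdhx*, *Pdk3*, *Pdp2*, *Glud1* and *Aco1*) lost the call under the settings given above. The cause was not tested. The log2 fold change of uncalled genes turned sign with libraries rescaled to the same sum for *Idh3b* (-0.0062), *Sucla2* (-0.033), *Suclg1* (-0.014) and *Mdh2* (-0.013), and under quantile normalization for *Pdp1* (-0.075). For *Sucla2* it was below 0 without sh-NC replicate 1 (-0.012) or sh-*Etv5* replicate 3 (-0.014), within a range of -0.014 to 0.079 over the libraries left out. With libraries rescaled to the same sum, 9 genes of the list were higher and 12 lower. Of the further pathway genes, 7 were higher and 23 lower. Among called genes, the share higher was then 42.9% against 52.2% without rescaling for the list. For the further genes it was 23.3% against 37.9%, and for all genes tested 38.8% against 44.8% (3124 higher and 4922 lower). Quantile normalization gave 12 and 11 of the list, and 12 and 19 of the further genes. The rescaling that leaves out the top 10 genes of each library gave 12 and 11, and 11 and 18. A log2 fold change above 0.5 left 1711 genes higher and 1611 lower of all genes, 4 and 3 of the list, and 4 and 7 of the further genes. Leaving out each library in turn gave 3358 to 3494 genes higher and 4140 to 4371 lower, 10 to 12 and 9 to 11 of the list, 8 to 10 and 17 to 19 of the further genes, and 11 to 13 ratios without overlap. Same-numbered libraries did not deviate together (correlations of -0.0710 to 0.0739), so the numbers were not taken as pairs. The replicate block gave 3539 higher and 4361 lower genes, 12 and 11 of the list, and 10 and 19 of the further genes, and 7813 genes were called in the same direction with and without it. The number of reads is unknown, so no difference was set against counting error, and low genes such as *Pdk2* and *Pdp1* are the least certain.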
